A study of Mus musculus with 4 samples.

Results

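The genes described here are 35 markers of Kupffer cells and of other liver macrophages, chosen by name: 6 that mark resident Kupffer cells, 5 that mark recruited macrophages, and 24 shared by macrophages or by leukocytes at large. All 35 had a probe set with a single gene symbol, among 18193 genes so named on the array. Each gene is read by the probe set with the highest mean log2 signal over the 4 arrays. RNA came from whole liver slices of male mice aged 9 months, kept on chow with no intervention. The AB6F1 group (2 mice) came from crossing AJ mothers to B6 fathers, and the B6AF1 group (2 mice) from the reciprocal mating, B6 mothers to AJ fathers. The autosomes are thus the same mix in both crosses, while the X chromosome and mitochondria come from the dam's strain and the Y chromosome from the sire's. The series is on nonalcoholic fatty liver disease. Its labels give a single comparison, AB6F1 against B6AF1, which is the direction of every difference below.

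Kupffer cells are the macrophages that live in the liver sinusoids. Most are seeded before birth and renew themselves there, and they take up bacteria, dying cells and old red cells from portal blood. When they are lost or the liver is injured or fatty, monocytes enter from the blood through the chemokine receptor CCR2, become macrophages, and can take on Kupffer cell markers over time. In fatty liver, lipid-handling macrophages that carry TREM2 and GPNMB are a known class. Whole liver mixes all of these with hepatocytes, so that more cells of a type and more RNA per cell cannot be told apart.

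Signals are on the linear MAS5 scale, in arbitrary units, and every array had been brought to the same trimmed mean. Genes were tested where the mean log2 signal was at least the probe sets' median, equal to a signal of 60.9, which kept 11749 genes and 29 of the 35. Timd4, Marco, Trem2, Gpnmb, Fcgr1 and Itgam lay below it and have values but no test. Of the 29, Cx3cr1 and Ms4a7 passed only through AB6F1, since their B6AF1 mean lay under the filter. Hepatocyte markers were bright, with summed signals of 271203 to 324971 per array over 10 tested genes, as the labelled tissue would have. The number of arrays limits the precision: with 2 against 2, an exact permutation p cannot go below 0.333, and handling that differed between the crosses cannot be told apart from the cross.

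Macrophage genes were higher in AB6F1 almost throughout, but none changed past the test. Of the 29 tested, 28 had a higher mean log2 signal in AB6F1, as had 53.5% of all tested genes, and the median log2 difference was 0.76 against 0.02 over all tested genes. The AB6F1 arrays both lay above both B6AF1 arrays for 20 of the 29, among them Cx3cr1 and Ms4a7, where 22.5% of all tested genes did so. The opposite held for 1, Cd163, where 18.7% did so. Of the 27 members whose means passed the filter in both crosses, 7 were over 2-fold higher in AB6F1, Lyz2, Lgals3, C1qa, C1qb, Ctss, Ptprc and Ccr2, a size that 3.27% of tested genes reached. By limma with Benjamini-Hochberg adjustment over all tested genes, 0 of the 29 passed, against 25 genes or 0.213% of those tested, and their adjusted p ran from 0.199 to 0.928. At an unadjusted p under 0.05 there were 16 higher members, where 5.84% of tested genes were called, and 1 lower, where 3.88% were.

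The arrays of a cross were unlike. AB6F1 replicate 1 was the highest array for 24 of the 29 tested members, which it was for 32.1% of all tested genes. B6AF1 replicate 1 was the lowest for 23 of the 29, against 23.7% of all tested genes. Centred on each gene's own mean, the members averaged 0.63 and 0.10 (log2) on the AB6F1 arrays and -0.52 and -0.21 on the B6AF1 arrays. Without AB6F1 replicate 2, 7 members passed, C1qa, C1qb, Csf1r, Ptprc, Lyz2, Ctss and Mpeg1, with limma adjusted p from 0.00185 to 0.0402; 2.06% of all tested genes passed in that fit, which sets a single AB6F1 mouse against 2 B6AF1 mice and assumes that the lone mouse varies as the others do. No member passed when any other array was left out.

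**Figure D1:**
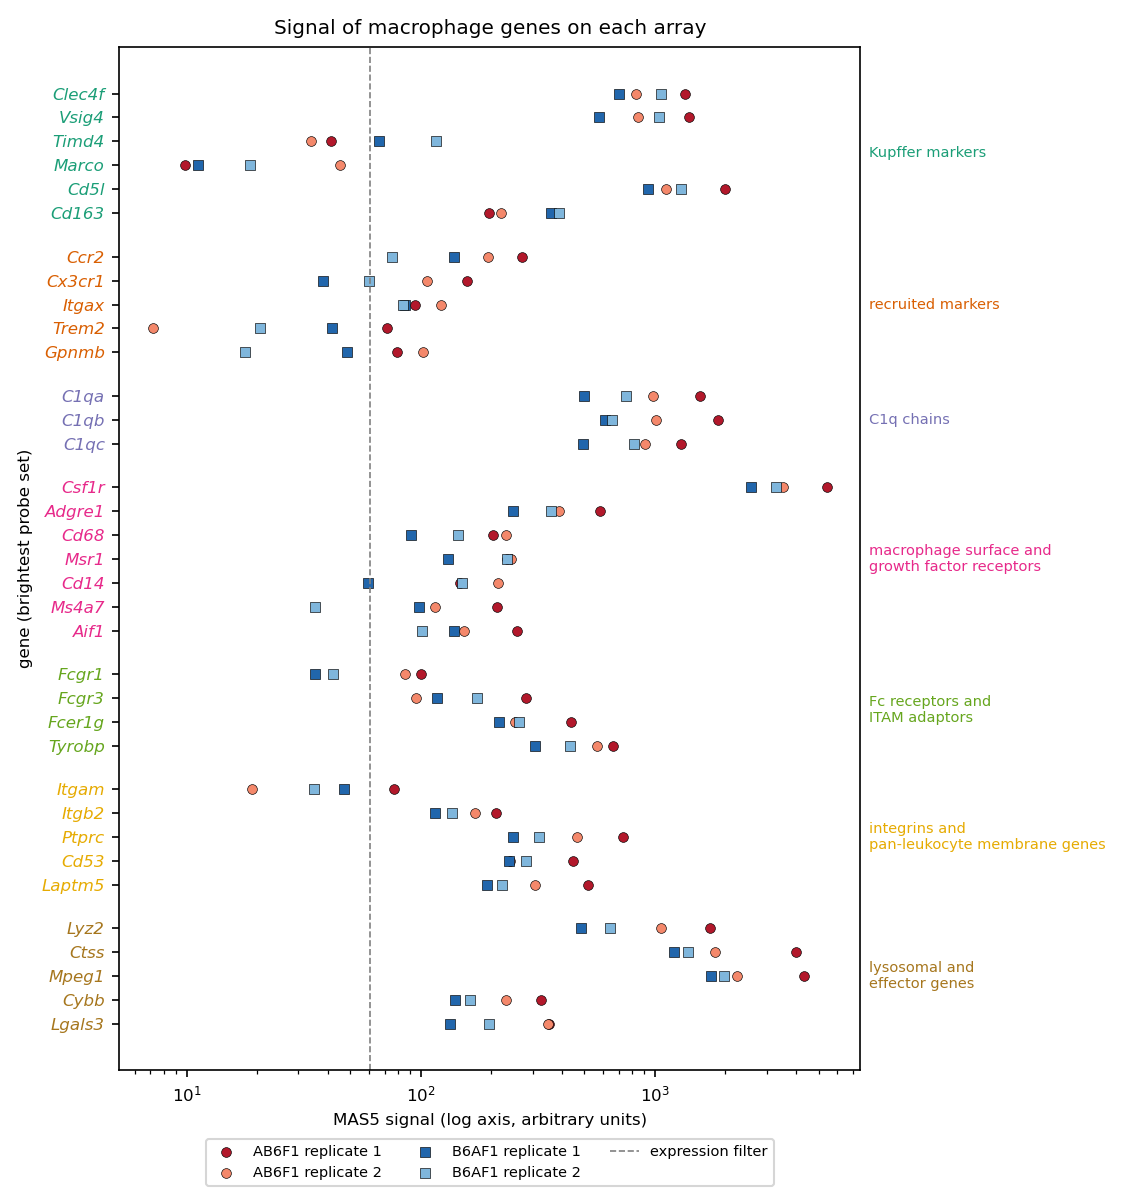
MAS5 signal (log axis, arbitrary units) of the brightest probe set of each of the 35 genes on each of the 4 arrays, by role; circles are AB6F1, squares B6AF1, and the dashed line is the expression filter at 60.9. For Lyz2, Ptprc, Laptm5 and most others both circles lie to the right of both squares, while for Cd163 and Timd4 they lie to the left.

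Among the Kupffer cell markers, 3 abundant ones overlapped between the crosses and followed each other from array to array. Clec4f, a C-type lectin restricted to Kupffer cells in the mouse, had signals of 1341.2 and 826.4 in AB6F1 against 700.1 and 1062.8 in B6AF1. Vsig4, the complement receptor that clears opsonised particles from blood, stood at 1391.9 and 842.3 against 578.3 and 1035.2. Cd5l, a secreted inhibitor of macrophage apoptosis, stood at 1986.9 and 1114.0 against 937.9 and 1297.5. In all 3 genes AB6F1 replicate 1 was highest, B6AF1 replicate 1 was lowest, and B6AF1 replicate 2 exceeded AB6F1 replicate 2. Their log2 differences were 0.29 ± 0.28 (SE), 0.48 ± 0.33 and 0.43 ± 0.29, with limma adjusted p of 0.780, 0.671 and 0.667. The difference of Clec4f ran from -0.06 without AB6F1 replicate 1 to 0.64 when the other AB6F1 array was the one left out. Vsig4 lies on the X chromosome, which the crosses take from different strains.

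Cd163, the scavenger receptor for haemoglobin bound to haptoglobin, went the other way. Its signal was 194.9 and 219.3 in AB6F1 against 359.1 and 389.2 in B6AF1, so that the groups lay well apart and the arrays within each were close. The means were 207 ± 17.3 (SD, n = 2) and 374 ± 21.3 (SD, n = 2), which differ by -0.85 ± 0.22 on the log2 scale (SE), with a limma adjusted p of 0.299. It was the only tested member with a negative difference, which ran from -0.94 to -0.77 with each array left out in turn. Timd4, the phosphatidylserine receptor of long-lived resident macrophages, was also lower on both AB6F1 arrays, at 41.5 and 34.0 against 66.2 and 115.9, a log2 difference of -1.22 with a mean below the filter and no test. Marco, a scavenger receptor for bacteria, was dim on every array, from 9.8 to 45.1, and its values had no order between the crosses.

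The markers of recruited macrophages were mostly higher in AB6F1. Ccr2, the receptor by which monocytes leave the marrow, had signals of 270.7 and 193.5 in AB6F1 against 139.3 and 75.6 in B6AF1. The groups did not overlap, and they differed by 1.16 ± 0.40 (log2, SE), with a limma adjusted p of 0.431. Of its other probe sets, those at 2.56 and 0.56 pointed the same way, the latter with overlapping arrays. A dim one pointed the other way, at -1.07. Cx3cr1, the fractalkine receptor of patrolling monocytes and many tissue macrophages, was at 157.1 and 106.7 against 38.3 and 60.1. Both of its B6AF1 arrays were below the filter signal, so the log2 difference of 1.43 ± 0.52 (limma adjusted p = 0.451) carries no reliable fold. Itgax, the CD11c integrin chain of dendritic cells and activated macrophages, was at 94.3 and 121.7 against 85.6 and 84.2, and its difference of 0.34 ± 0.42 was within its error (limma adjusted p = 0.826).

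Both markers of lipid-associated macrophages in this group were below the filter. Gpnmb, a membrane glycoprotein of lysosome-rich macrophages, had signals of 79.4 and 102.0 in AB6F1 against 48.5 and 17.7 in B6AF1, higher on both AB6F1 arrays. Trem2, a receptor for lipids that signals through TYROBP, was scattered, with 71.5 and 7.2 against 41.8 and 20.5, and its probe sets gave -0.37 and 0.19. Neither gives a usable size at these signals.

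The difference between the crosses had a higher median over the recruited markers than over the Kupffer markers, but it rested on dim genes and the arrays overlapped. The median log2 difference was 0.36 over the 6 Kupffer markers, of which 4 were higher, and 1.16 over the 5 recruited markers, of which 4 were higher. The 1.16 is the value of Ccr2. Above it lay only Cx3cr1 and Gpnmb, at 1.43 and 1.62, whose means were over the filter in AB6F1 and under it in B6AF1. Below it lay Itgax at 0.34 and Trem2 at -0.37, so nothing is read from the gap between the medians. The mean log2 signal of the Kupffer markers minus that of the recruited markers, a quantity that scaling an array cannot move, was centred at -0.79 and -0.10 on the AB6F1 arrays and -0.13 and 1.02 on the B6AF1 arrays. The crosses thus overlapped, and the difference between them, -0.89, was little more than the pooled replicate SD of 0.67. Leaving out B6AF1 replicate 1 gave -1.46, and leaving out B6AF1 replicate 2 gave -0.32. The Kupffer median itself was near 0 when any array but B6AF1 replicate 2 was left out, at -0.02 to 0.04. With only the 4 Kupffer and 3 recruited markers above the filter, a choice made after seeing the data, the array values were -0.30 and -0.59 in AB6F1 against 0.15 and 0.74 in B6AF1, with the same difference of -0.89 and a pooled SD of 0.33. One of those 3, Cx3cr1, passed the filter only through AB6F1, so nothing is read from the order of these values. No p is given for these scores, since their members were chosen.

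**Figure D2:**
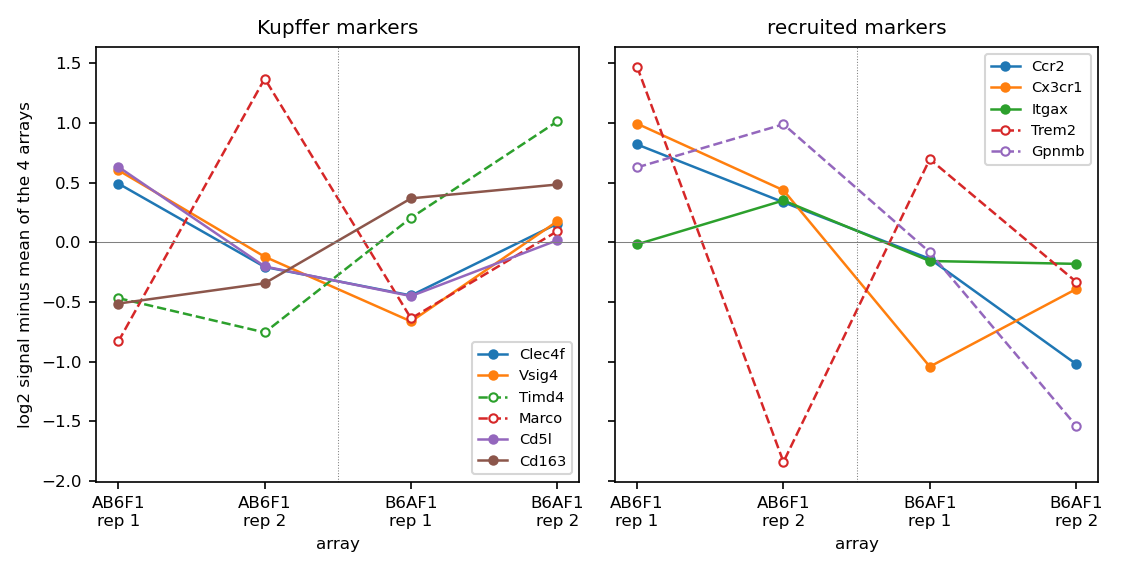
Log2 signal of each Kupffer marker (left) and recruited marker (right) minus its own mean over the 4 arrays, by array; lines join the values of a gene and imply no order, and dashed lines with open points are genes below the filter. Clec4f, Vsig4 and Cd5l trace nearly the same line, Cd163 and Timd4 are lower in both AB6F1 arrays, and Ccr2 and Cx3cr1 are higher in both.

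Of the C1q chains, C1qa and C1qb were further apart between the crosses than C1qc. C1qa, C1qb and C1qc encode the subunits of the recognition molecule of the classical complement pathway, and liver macrophages are a main source of them. C1qa stood at 1554.4 and 985.0 on the AB6F1 arrays against 499.4 and 754.2 on the others. C1qb stood at 1860.2 and 1013.6 against 611.3 and 652.9, and C1qc at 1287.2 and 904.2 against 491.4 and 813.7. All 3 were higher on both AB6F1 arrays, with B6AF1 replicate 2 closest to AB6F1 replicate 2 for C1qc. The log2 differences were 1.01 ± 0.28 (SE), 1.12 ± 0.27 and 0.77 ± 0.28, with limma adjusted p of 0.338, 0.278 and 0.451. The 2 other probe sets of C1qb gave 1.02 and 0.75, the latter with overlapping arrays. The brightest C1qb probe set and the one at 1.02 have the suffix _x_at, which marks probes that can bind related transcripts. The one at 0.75 does not.

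The sequences upstream of C1qb and C1qc, neighbours on chromosome 4, are shown because both were higher on both AB6F1 arrays, and those of Cd5l and Cd163 to set a Kupffer marker whose arrays overlapped beside the one that was lower in AB6F1. They are the 250 bases before the RefSeq start site in GRCm38.p6, 5′ to 3′ on the gene's strand, at chr4:136886201-136886450 (minus), chr4:136892915-136893164 (minus), chr3:87357631-87357880 (plus) and chr6:124304401-124304650 (plus). Capitals mark GAGGAA or its reverse complement TTCCTC, the core of the PU box bound by PU.1, the factor that sets macrophage identity.
C1qb: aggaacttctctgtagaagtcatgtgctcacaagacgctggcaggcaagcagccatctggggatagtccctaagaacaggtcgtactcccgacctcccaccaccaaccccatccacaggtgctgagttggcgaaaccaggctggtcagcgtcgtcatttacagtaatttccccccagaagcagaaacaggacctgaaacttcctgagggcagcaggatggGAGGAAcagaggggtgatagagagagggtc
C1qc: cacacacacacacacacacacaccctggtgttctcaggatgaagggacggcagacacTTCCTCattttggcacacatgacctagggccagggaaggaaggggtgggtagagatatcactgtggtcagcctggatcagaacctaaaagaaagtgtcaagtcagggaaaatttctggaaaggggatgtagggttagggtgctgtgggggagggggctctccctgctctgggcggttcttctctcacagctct
Cd5l: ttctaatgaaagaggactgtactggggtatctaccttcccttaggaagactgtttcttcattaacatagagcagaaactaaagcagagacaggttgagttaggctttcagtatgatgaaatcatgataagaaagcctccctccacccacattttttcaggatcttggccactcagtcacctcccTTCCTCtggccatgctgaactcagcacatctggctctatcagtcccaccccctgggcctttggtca
Cd163: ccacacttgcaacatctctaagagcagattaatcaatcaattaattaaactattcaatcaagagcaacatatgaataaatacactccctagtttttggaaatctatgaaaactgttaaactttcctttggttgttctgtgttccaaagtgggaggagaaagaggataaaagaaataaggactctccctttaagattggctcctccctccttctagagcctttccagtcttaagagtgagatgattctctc
The match began 30 bases before the start site in C1qb, 193 in C1qc and 66 in Cd5l, and these letters were not found in the Cd163 window. Of the 28 members with such a window, 15 (53.6%) held the motif on either strand in at least 1 window, as did 25.9% of 27025 genes. Among those without it were Lyz2, Mpeg1, Ccr2 and Cx3cr1. A match of 6 letters describes the sequence and shows no binding.

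Of the general macrophage markers, mostly surface receptors, 7 of 7 were higher in AB6F1 on the brightest probe set, though the probe sets of Msr1 disagree. The median was 0.75, and 5 had both AB6F1 arrays above both B6AF1 arrays, against 22.5% of all tested genes. Ms4a7, among the 5, passed the filter only through AB6F1. Csf1r, the receptor for the growth factor on which macrophages depend, had signals of 5405.7 and 3503.8 in AB6F1 against 2560.7 and 3300.4 in B6AF1. The difference was 0.58 ± 0.22 (log2, SE), with a limma adjusted p of 0.476. Its other 2 probe sets gave 0.81 and 0.39, the latter with overlapping arrays. Adgre1, the F4/80 antigen, was at 584.2 and 388.4 against 247.0 and 358.9, and Cd68, a glycoprotein of macrophage lysosomes, at 202.9 and 231.3 against 90.4 and 143.6. Both were higher on both AB6F1 arrays. Aif1, the actin-binding protein IBA1, and Ms4a7, a tetraspan of mature macrophages, differed by 0.75 ± 0.38 and 1.40 ± 0.61. The Ms4a7 value rests on B6AF1 signals of 98.4 and 35.4, and a dim second probe set gave -1.85.

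Cd14 and Msr1 were the members of this group whose arrays overlapped. Cd14, the co-receptor for bacterial lipopolysaccharide, was at 146.8 and 213.7 in AB6F1 against 59.7 and 149.8 in B6AF1, a log2 difference of 0.91 ± 0.51. Msr1, a scavenger receptor for modified lipoproteins, was at 232.3 and 243.9 against 130.4 and 234.3. Its 4 probe sets disagreed, with 0.45 on the brightest, -0.01 and -0.66 on the next 2, and 3.11 on the dimmest, so no direction is given for it.

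Receptors for immunoglobulin and their signalling adaptors were less uniform. Tyrobp, the DAP12 adaptor that carries an activation motif for TREM2 and related receptors, was at 664.2 and 563.1 in AB6F1 against 306.2 and 432.6 in B6AF1. The groups were apart, by 0.75 ± 0.22 (log2, SE), with a limma adjusted p of 0.383. Fcer1g, the common gamma chain of Fc receptors, overlapped, at 438.8 and 252.8 against 215.9 and 261.6. Fcgr3, a low-affinity IgG receptor, had the widest spread of the tested members of this group, at 281.5 and 95.5 against 117.7 and 174.3, and its difference of 0.20 ± 0.53 ran from -0.58 without AB6F1 replicate 1 to 0.97 without AB6F1 replicate 2. Fcgr1, the high-affinity IgG receptor, lay below the filter with 99.8 and 86.0 against 35.2 and 42.3, higher on both AB6F1 arrays on this probe set and, at 2.98, on the dimmer second one.

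Genes shared by all leukocytes were also higher. Ptprc, the CD45 phosphatase of every nucleated blood cell, was at 731.6 and 465.7 in AB6F1 against 246.5 and 320.7 in B6AF1, which is 1.05 ± 0.27 on the log2 scale, with a limma adjusted p of 0.305. Laptm5, a lysosomal membrane protein of blood cells, was at 519.9 and 307.6 against 191.2 and 221.2, or 0.96 ± 0.30 (limma adjusted p = 0.384). For both genes the AB6F1 arrays lay above the B6AF1 arrays. Of the 4 other Laptm5 probe sets, 3 were higher with overlapping arrays and a dim one gave -1.42. The brightest has the suffix _x_at, and the mean over the Laptm5 probe sets gave 0.35. Itgb2, the shared chain of the leukocyte integrins, differed by 0.60 ± 0.31 with no overlap, whereas Cd53, a tetraspanin, overlapped at 0.35 ± 0.32. Itgam, the CD11b chain of myeloid cells, was below the filter, with 76.9 and 19.0 against 47.0 and 35.1, and showed no order.

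The lysosomal and effector genes were higher on both AB6F1 arrays in 5 of 5, against 22.5% of all tested genes, with a median of 1.06. Lyz2, the lysozyme of macrophages and granulocytes, had the smallest p of all members. Its signals were 1723.1 and 1059.3 in AB6F1 against 484.6 and 640.1 in B6AF1, a 2.43-fold difference, or 1.28 ± 0.26 on the log2 scale (SE; limma adjusted p = 0.199). It lies close in sequence to Lyz1, which stood at 1.40 ± 0.34, and the probe sets may share signal. Lgals3, galectin-3, was at 354.3 and 347.6 against 133.9 and 196.1, with close AB6F1 arrays and 1.11 ± 0.27 between the crosses (limma adjusted p = 0.278).

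Ctss, the cathepsin that trims the invariant chain for antigen presentation, was at 4003.7 and 1812.5 against 1206.9 and 1377.2, or 1.06 ± 0.33 (limma adjusted p = 0.392). Its AB6F1 arrays differed from each other by more than AB6F1 replicate 2 differed from B6AF1. Mpeg1, a pore-forming protein that kills engulfed bacteria, and Cybb, the catalytic subunit of the phagocyte oxidase, differed by 0.76 ± 0.29 and 0.87 ± 0.29. Cybb is the other member on the X chromosome, and its 2 further probe sets gave 0.86 and 0.37, both with overlapping arrays.

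**Figure D3:**
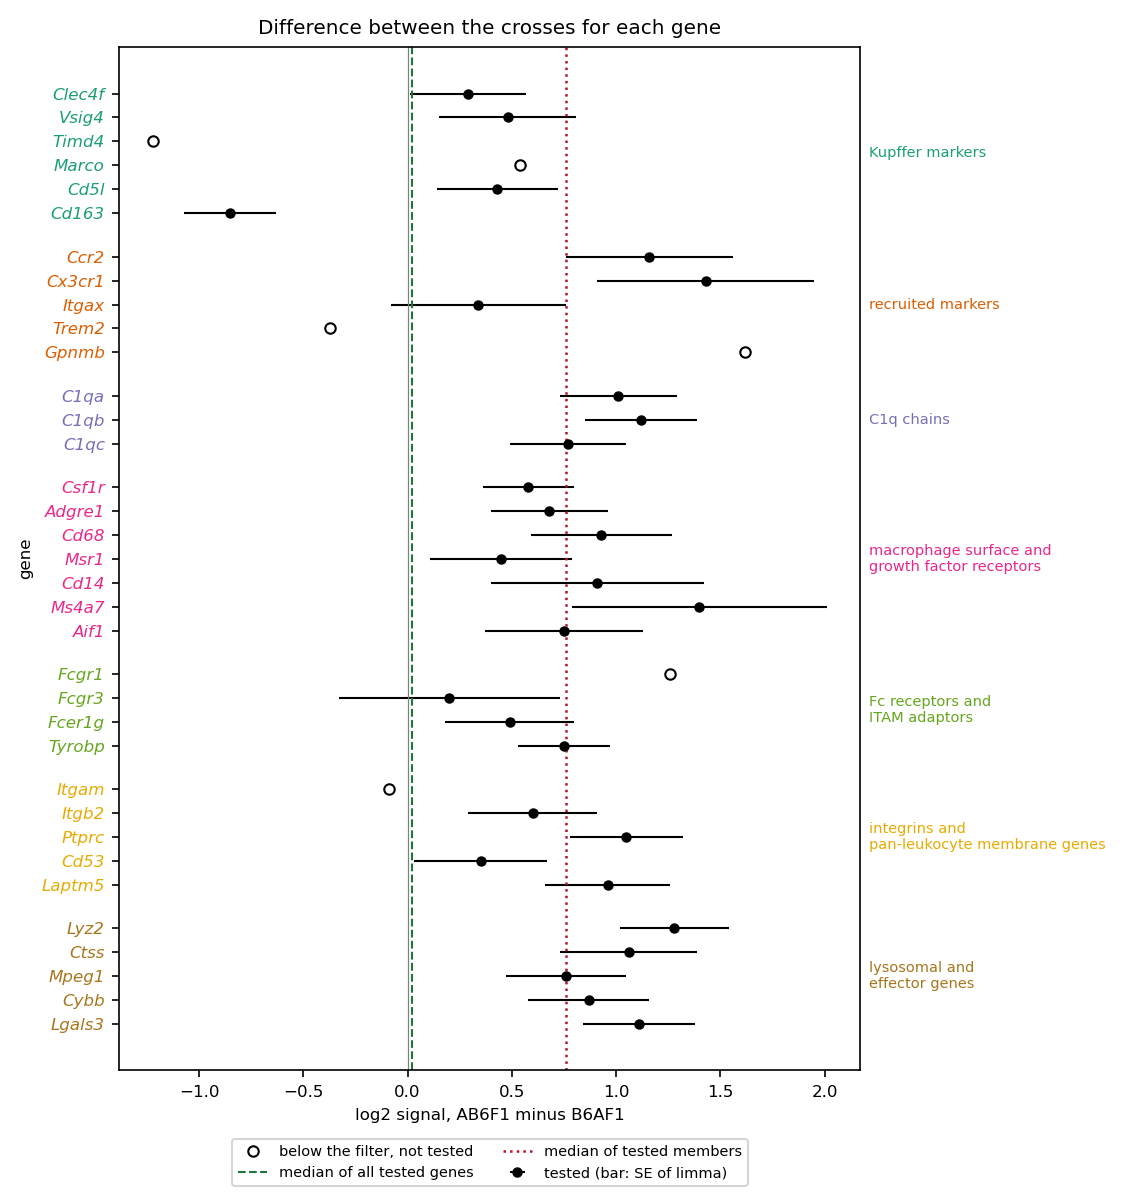
Log2 difference, AB6F1 minus B6AF1, of each gene by role; bars are limma standard errors and open points are genes below the filter with no test. The members' median of 0.76 (dotted) lies well right of the median of all tested genes at 0.02 (dashed), with Cd163 and the untested Timd4 at -0.85 and -1.22.

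The spread between mice of a cross was partly shared by the macrophage genes. Clec4f, Vsig4 and Cd5l together were centred at 0.58 and -0.18 on the AB6F1 arrays and -0.52 and 0.12 on the B6AF1 arrays. The mean log2 signal of these 3 was then subtracted on each array, a reference chosen after the signals were seen. It leaves out the Kupffer markers that were lower in AB6F1, Cd163 and Timd4, and the dim Marco. The median replicate SD of the other 26 tested members went from 0.42 to 0.27, while that of all tested genes went from 0.19 to 0.52. On this scale C1qa was at 0.26 and 0.35 in AB6F1 against -0.28 and -0.33 in B6AF1, and Lyz2 at 0.41 and 0.46 against -0.32 and -0.56. Cx3cr1 was at 0.42 and 0.61 against -0.52 and -0.51, and Ptprc at 0.28 and 0.38 against -0.20 and -0.45. The arrays of a cross were close for these 4 genes, which were picked after their values were seen, and Cx3cr1 passed the filter only through AB6F1. The spread was smaller for 16 of the 26 and not for the others. That of Cd163 went from 0.10 to 0.53, that of Itgax from 0.18 to 0.65 and that of Ccr2 from 0.50 to 0.77. Both recruited markers overlapped on this scale, Ccr2 at 0.24 and 0.51 against 0.38 and -1.14, and Itgax with a difference of -0.07.

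Relative to Clec4f, Vsig4 and Cd5l, the median difference of the 26 was 0.42. Over all tested genes it was -0.38, since the reference was itself 0.40 higher in AB6F1. For 14 of the 26 both AB6F1 arrays lay above both B6AF1 arrays, where 2.55% of all tested genes did so. Cd163 was apart in the opposite direction. The 14 include Cx3cr1, which passed the filter only through AB6F1. The background of 2.55% is low because genes that do not follow the reference take on its spread, so nothing is read from the gap. Csf1r, Fcer1g and Itgb2 overlapped on this scale, with differences of 0.18, 0.09 and 0.20. Cd163 was lower by more, at -1.09 and -0.17 against 0.89 and 0.37, a difference of -1.26. With Clec4f, Vsig4 or Cd5l as the sole reference, the members' median was 0.53, 0.33 or 0.39, against -0.26, -0.46 or -0.41 over all tested genes. A ratio within an array shows that the members differed unequally, and not which of them stayed constant.

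**Figure D4:**
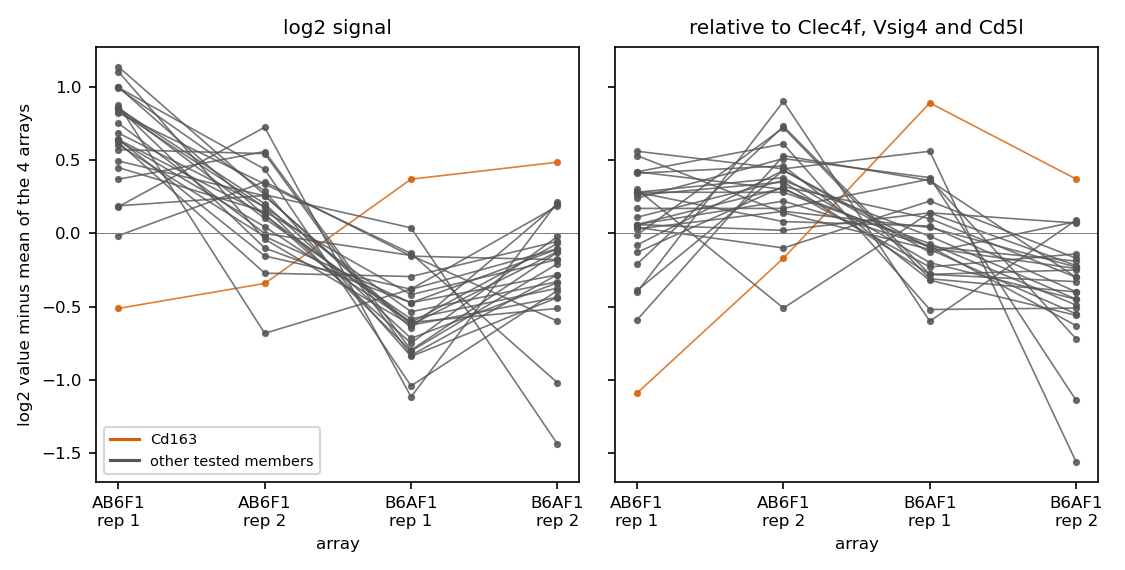
Log2 signal of the 26 tested members other than Clec4f, Vsig4 and Cd5l, as measured (left) and after subtracting the mean of those 3 on the same array (right), each centred on the gene's mean over the 4 arrays; lines join the values of a gene. The median replicate SD is 0.42 on the left and 0.27 on the right, and Cd163 (orange) is lower on both AB6F1 arrays than on both B6AF1 arrays in each panel.

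Other genes of the macrophage pathway were mostly higher, where 53.5% of all tested genes were, and 0 of them passed the test over all genes. Of the growth factors and chemokines that act on macrophages, 3 of 5 tested were higher, which is near that share. Their median was 0.25, and the crosses overlapped for each. Csf1, a ligand of CSF1R, was at 0.29 ± 0.21 and Ccl2, the ligand of CCR2, at 0.25 ± 0.50. Of the transcription factors 7 of 9 were higher, with a median of 0.35. Spi1, which encodes PU.1, was at 0.46 ± 0.36 and Id3, needed for Kupffer cell identity, at 0.41 ± 0.19. Among further Kupffer genes 8 of 11 were higher and the median was 0.55, with Hmox1, haem oxygenase, at 1.03 ± 0.30 and Axl, a receptor for dying cells, at 0.81 ± 0.30. Of 13 genes of Fc receptor and adaptor signalling 10 were higher, with a median of 0.41; the kinase Syk was at 1.15 ± 0.46 and the kinase Fgr at -0.81 ± 0.38, the latter lower on both AB6F1 arrays.

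Only 3 of 10 further monocyte genes could be tested. Plac8, abundant in monocytes, was at 1028.9 and 710.3 in AB6F1 against 428.7 and 459.8 in B6AF1, or 0.95 ± 0.21 on the log2 scale (limma adjusted p of 0.244), while Fn1, which hepatocytes also make, was at -0.05 ± 0.21. Lipid-associated macrophage genes had a median of 0.15 over 10 tested, with 7 higher, where 53.5% of all tested genes were. Those with the smallest p, Cd36, the proton pump subunit Atp6v0d2 and the lipid carrier Fabp5, were at 0.72 ± 0.13, 0.75 ± 0.17 and 1.42 ± 0.38, and other cells of the liver also express them.

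Markers of some other cells were also higher. Neutrophils express Lyz2, Itgam, Itgb2, Fcer1g and Tyrobp too. Of 12 neutrophil markers 6 were tested, with 4 higher, where 53.5% of all tested genes were, and a median of 0.85. Their summed signal was 1602 and 691 in AB6F1 against 677 and 390 in B6AF1, led by S100a8 at 601.9 and 120.7 against 76.8 and 23.0. S100a8 and S100a9, the latter at 69.8 and 40.6 in B6AF1, passed the filter only through AB6F1. Nothing is therefore read from the count, median or sum of the neutrophil markers. Ly6g, Cxcr2, Retnlg, Mmp8, Camp and Ltf were not tested. Stellate cell and fibroblast markers had a median of 0.75 over 12, of which 2, Col3a1 and Col1a2, rose past the test, and their summed signal was 16605 and 20379 against 13344 and 12868, highest in AB6F1 replicate 2 rather than replicate 1. The part of either cell type in the macrophage values was not tested.

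No tested lymphocyte marker was higher on both AB6F1 arrays, where 22.5% of all tested genes were. Lower on both were 1 T and NK cell marker and 2 B and plasma cell markers, where 18.7% of all tested genes were. Of the T and NK cell markers 4 of 14 were tested, with 3 higher by mean and a median of 0.28. Their summed signals were 356 and 266 in AB6F1 against 214 and 386 in B6AF1. Of the B and plasma cell markers 6 of 9 were tested, with 4 higher by mean and a median of 0.26. Their sums were 2422 and 5041 against 7000 and 1444. Cd79b, Mzb1, Jchain and Cd79a, those of smallest p, had signals of at most 295.3 on any array. The sums thus came mostly from the other tested genes of the list and do not stand for the group. Only 2 of 8 dendritic cell markers, Batf3 and Zbtb46, were tested, at 0.77 ± 0.40 and 0.18 ± 0.46. Endothelial markers had a median of 0.01, with 6 of 12 higher, although Lyve1 and Cdh5 were at 1.18 ± 0.39 and 0.69 ± 0.23. Hepatocyte markers had a median of -0.19, with 9 of 10 lower.

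**Figure D5:**
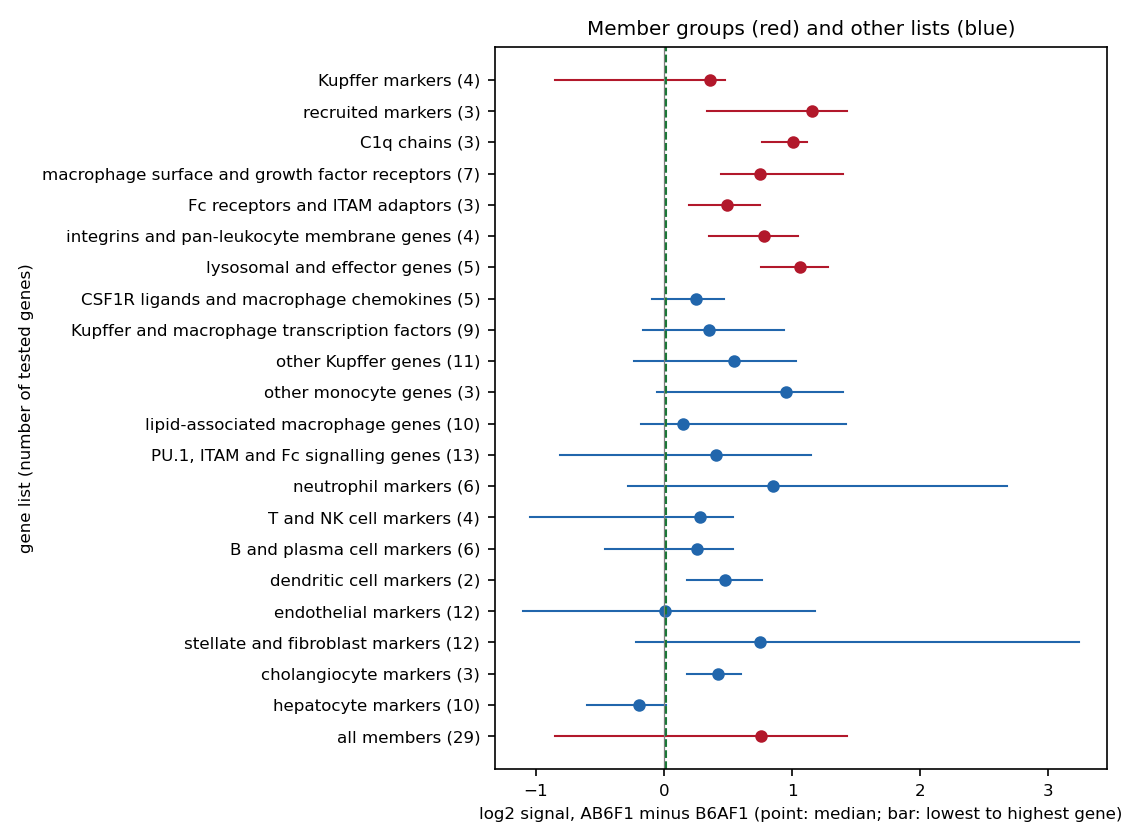
Median log2 difference (point) and the lowest to highest gene (bar) of each group of members (red) and of each other list (blue), AB6F1 minus B6AF1, with the number of tested genes in brackets; the dashed line is the median of all tested genes at 0.02. The medians of the member groups run from 0.36 for the Kupffer markers to 1.16 for the recruited markers. The latter is over 3 tested genes, of which Cx3cr1 passed the filter only through AB6F1.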

How the data were processed

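Total RNA was hybridised as biotin-labelled cRNA to Affymetrix arrays, 1 array per mouse, per the labels' protocols. The deposited values are MAS5 intensity on a linear scale (the tool is named in the submitters' processing notes, without a version). All arrays had the same mean once the lowest and highest 2% of probe sets were dropped, so a shift common to every transcript is hidden. Neither scanner output nor detection calls entered. Of 45101 probe sets, 34945 had 1 gene symbol in the platform annotation, 932 had several and 9160 had none, beside 64 controls. Symbols were updated by gene identifier through the RefSeq table of GRCm38.p6 for 34741 probe sets, which also gave chromosomes.

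Log2 signals, without a pseudocount, were compared between the crosses in limma 3.58.1 under R 4.3.3 (lmFit, eBayes with an intensity trend, 2 residual and 4.97 prior degrees of freedom), with two-sided tests, Benjamini-Hochberg adjustment over all tested genes and a threshold of 0.05. SE are limma's, and SD are over the 2 mice of a cross. Each p sets the difference between the crosses against the spread between mice of a cross, moderated by a prior from all tested genes. It speaks only for these 4 mice. Values are given for each Kupffer, recruited and C1q gene, the 6 other members of smallest p and members whose probe sets disagree, at most 4 from each other list, again by smallest p, and further members where they show a group's range. The members and lists were chosen with earlier results of these data known. Alternatives were quantile normalization, median centring, 16 added to the signal, no filter or one at the 75th percentile, other choices of probe set, eBayes without the trend or robust, a block for the replicate number, leaving out each array, and a threshold of 0.1. Promoter windows came from a table of RefSeq sequences (GRCm38.p6), in which 28 of the 35 members were matched by symbol.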

Additional observations from a re-analysis of the deposited data

How the results depend on the processing

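No member passed over all genes under any alternative other than leaving out AB6F1 replicate 2, and the count ran from 0 to 7 with each array left out. Over all genes, 25 passed, against 49 after median centring, 9 with the mean over probe sets, 0 for eBayes without the trend (1044 at an unadjusted p under 0.05), 46 at a threshold of 0.1, and 1 to 242 with each array left out. With the replicate number as a block 62 genes passed and no member did, with a smallest member adjusted p of 0.095 by limma. Deviations of same-numbered arrays correlated at -0.027 across genes, and a pairing limited to some genes was not tested. Median centring moved the median of all genes to -0.11 from 0.02 and the members' median to 0.62 from 0.76, and split the calls 28 higher and 21 lower in place of 16 and 9. The members' median ran from 0.50 to 0.97 with each array left out, the Kupffer median from -0.02 to 0.63, the recruited median from 0.72 to 1.40 and the difference between these marker means from -1.46 to -0.32. Of the 29 tested members 25 kept their sign under all alternatives. The others were Clec4f, from -0.06 to 0.64, Fcgr3, from -0.58 to 0.97, and Cd53, from -0.10 to 0.80, with each array left out, and Ms4a7, at -0.23 with the mean over probe sets; the cause was not tested. Groups of 2 are too small for a check of single outlying arrays, and signals below the filter limit Timd4, Marco, Trem2, Gpnmb, Fcgr1 and Itgam.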
